A study of Mus musculus with 6 samples.

Results

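The 9 Notch pathway genes described here were followed in sorted muscle stem cells of old and young mice: the receptor genes Notch1, Notch2 and Notch3, the ligand genes Dll1 and Jag1, the nuclear mediator Rbpj, and the effector genes Hes1, Hey1 and Heyl. They were chosen by symbol, and all 9 were found among the 12067 rows of the expression table. All 9 also passed the filter on low values, which kept 10609 genes. The 6 libraries form 3 groups of 2. Old GSH-low and old GSH-high are both fractions of muscle stem cells from C57BL/6 males aged 23 months, with 2 animals pooled in each library. GSH is reduced glutathione, the main thiol antioxidant of the cell, and the fractions were separated by the fluorescence of ThiolTracker Violet, a dye that binds it. Young cells came from C57BL/6 males aged 4 months, 1 animal per library, and were kept whole after the same staining, since per the labels nearly all of them stained as GSH-high. Before this step, a first sort had kept VCAM+ cells of all groups that lacked Sca1, CD31 and CD45. Each comparison with young therefore joins a difference in age with a difference in gating and in pooling, and these cannot be told apart. The labels do not say whether the old fractions came from the same pools of animals.

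Notch signalling passes between neighbouring cells. A ligand of the Delta or Jagged family on one cell binds a Notch receptor on another, the receptor is cut by an ADAM protease and then by gamma-secretase, and the freed intracellular part enters the nucleus, where it joins the DNA-binding protein RBPJ and turns on genes such as those of the HES and HEY repressors. In mouse satellite cells, the stem cells of muscle, this pathway is known for holding cells in quiescence: without Rbpj, or without Hey1 and Heyl together, the cells leave that state and the pool is lost.

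Levels are given as RPKM, reads scaled to gene length and library size, so that genes can be compared with one another per length. Changes are log2 fold changes on the log2(RPKM + 1) scale with their standard error (SE), fitted with limma-trend over all genes and all 6 libraries. A gene was called at a Benjamini-Hochberg adjusted p under 0.05. Libraries held 47.01 to 68.81 M recovered reads. Each member had 595 to 33728 reads per library, which leaves a counting error of 0.545% to 4.1%. All 12 satellite cell markers were measured, and their summed level was 2536 to 2628 RPKM in old GSH-low, 2851 to 2889 RPKM in old GSH-high and 3340 to 3559 RPKM in young libraries. This sum follows the most abundant markers, and the 12 did not share one direction. In old GSH-low against young 2 rose and 5 fell (58.3% called, beside 36.8% of all genes). In old GSH-high against young 1 rose and 4 fell (41.7%, beside 28.8%), and between the old fractions 1 rose (8.33%, beside 5.38%). Transcripts known as markers of other cell types were present as well, and which cells made them was not tested. In bulk RNA, fewer cells of a type and less RNA per cell cannot be told apart.

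Of the receptor genes Notch1 was called, in 1 comparison, and the other calls were of ligands, effectors and Rbpj. Between the old fractions 1 of the 9 members was called, Hes1, which rose in old GSH-low. Of all genes tested, 5.38% were called in that comparison, 3.69% higher and 1.69% lower. In old GSH-high against young cells, Jag1 rose and Dll1 and Hey1 fell, which makes 3 of 9 members (33.3%) where 28.8% of all genes were called, 15.1% higher and 13.7% lower. In old GSH-low against young cells, Notch1, Rbpj and Heyl rose and Dll1 and Hey1 fell. That is 5 of 9 members (55.6%), where 36.8% of all genes were called, 18.1% higher and 18.7% lower. The share of members called in old GSH-high against young lay near that of all genes. Of the genes called, 52.4% were higher in old GSH-high than in young and 49.2% in old GSH-low than in young; with library size as the only scaling these shares were 63.1% and 60.1%. The 3 comparisons share libraries, so they are not independent of one another.

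**Figure D1:**
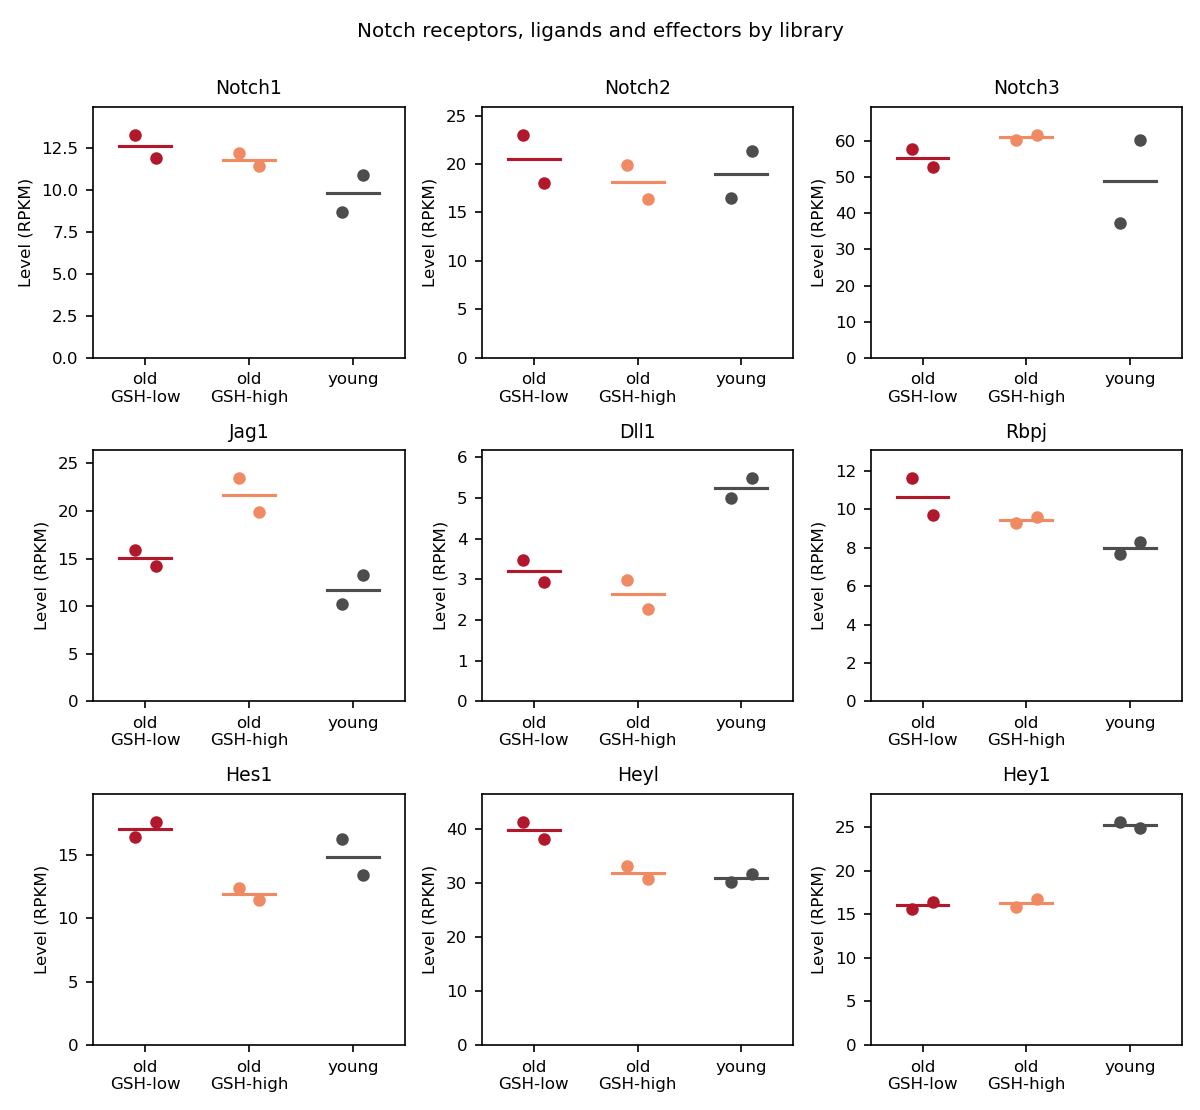
Level of each member (RPKM, linear axis from 0) in the 2 libraries of old GSH-low, old GSH-high and young cells; points are libraries and lines are group means. Dll1 and Hey1 lie higher in both young libraries than in all 4 old libraries, Jag1 is highest in old GSH-high, and the young libraries lie apart for Notch3 at 37.4 and 60.3 RPKM.

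By level, Notch3 was the most abundant member in every group. Its mean was 55.3 ± 3.41 RPKM in old GSH-low, 61.0 ± 1.07 in old GSH-high and 48.8 ± 16.2 in young cells (SD, n = 2 each). Heyl followed in each group, with no overlap with Notch3. Dll1 was the least abundant in every group, with 2.28 to 5.49 RPKM over the 6 libraries. On the deposited lengths, Hes1, Hey1 and Jag1 were neighbours in old GSH-low, with means of 17.0, 16.1 and 15.1 RPKM, and the libraries of Hes1 and Hey1 overlapped, as did those of Hey1 and Jag1. Per base of the longest coding transcript these means were 23.6, 21.6 and 15.6 RPKM, with Notch2 at 21.1 and Notch1 at 18.9 RPKM between Hey1 and Jag1, so the order of the middle members depends on the length used. The deposited length counts every annotated exon base, and for Rbpj this is 2.33 times the length of its longest coding transcript. Per base of that transcript, Rbpj averaged 24.8 RPKM in old GSH-low, 22.0 RPKM in old GSH-high and 18.5 RPKM in young cells, against 10.7, 9.44 and 7.98 RPKM as deposited.

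Among the receptors, Notch1 (chromosome 2, 26457903 to 26516663, GRCm38), whose signal keeps satellite cells uncommitted, had 13.3 and 11.9 RPKM in old GSH-low, 12.2 and 11.4 RPKM in old GSH-high and 8.72 and 10.9 RPKM in young libraries. Both young libraries lay under all 4 old libraries. The level was 1.29-fold higher in old GSH-low than in young cells (log2 fold change 0.34 ± 0.11 SE, adjusted p = 0.0455). This call ended without any 1 library other than young replicate 2 (adjusted p of 0.0710 to 0.241) and with only the 4 libraries of the comparison (0.0708). In old GSH-high against young the change was 0.25 with a 95% confidence interval of -0.01 to 0.51 (adjusted p = 0.129), and without young replicate 2 it was 0.40 and called (adjusted p = 0.0188). The old fractions overlapped (0.09, -0.17 to 0.35). Other genes on the opposite strand cover 9.76% of the exon bases of Notch1, 5.02% of those of Notch2 and 6.03% of those of Notch3, and the labels do not say whether reads were counted by strand.

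Notch2 (chromosome 3, 98013527 to 98150361), a receptor that acts beside Notch1 in satellite cells, had 23.0 and 18.0 RPKM in old GSH-low, 19.9 and 16.4 RPKM in old GSH-high and 16.5 and 21.4 RPKM in young libraries. The 3 groups overlapped. No comparison passed the test, and the 95% intervals of the log2 fold change were -0.19 to 0.52 between the old fractions, -0.40 to 0.30 for old GSH-high against young and -0.24 to 0.46 for old GSH-low against young.

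Notch3 (chromosome 17, 32120820 to 32166852), which is present in satellite cells and is also the characteristic Notch receptor of vascular mural cells (pericytes and smooth muscle), had 57.7 and 52.9 RPKM in old GSH-low, 60.3 and 61.8 RPKM in old GSH-high and 37.4 and 60.3 RPKM in young libraries. The higher young library lay within the range of the old libraries, and the other lay under all of them. The change was 0.35 in old GSH-high (95% interval -0.06 to 0.77, adjusted p = 0.177) and 0.21 in old GSH-low against young (-0.20 to 0.63, adjusted p = 0.384). The old fractions differed by -0.14 (-0.55 to 0.27, adjusted p = 0.734). Against young, 1 library decided the call: without young replicate 2 the changes were 0.69 and 0.55 and both were called (adjusted p = 0.00124 and 0.00243), while without young replicate 1 they were 0.02 and -0.12. Young replicate 1 was the lower of the young libraries for 7 of the 9 members, all but Hes1 and Hey1.

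In old GSH-high against young cells the ligand genes moved in opposite directions. Dll1 (chromosome 17, 15367354 to 15376872), a Delta ligand that satellite cells and their progeny make, had 3.49 and 2.94 RPKM in old GSH-low, 2.98 and 2.28 RPKM in old GSH-high and 4.99 and 5.49 RPKM in young libraries. No old library reached the lower of the young ones. In old GSH-high it fell to 0.502 times the young level (log2 fold change -0.79 ± 0.12 SE, adjusted p = 0.00177), and it remained called under every alternative tried. In old GSH-low it fell to 0.613 times that level (-0.57 ± 0.12, adjusted p = 0.00700), a call lost narrowly (adjusted p = 0.0518) once old GSH-low replicate 2 was left out. Between the old fractions the libraries overlapped (0.22, 95% interval -0.06 to 0.49, adjusted p = 0.375). A gene on the opposite strand covers 20.5% of the exon bases of Dll1, more than for any other member, and its reads cannot be told apart here.

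Jag1 (chromosome 2, 137081456 to 137116644), a Jagged ligand of many tissues including endothelium, had 15.9 and 14.2 RPKM in old GSH-low, 23.4 and 19.8 RPKM in old GSH-high and 10.2 and 13.2 RPKM in young libraries. The 3 groups did not overlap, with old GSH-high at the top and young at the bottom. Jag1 rose 1.85-fold in old GSH-high against young (0.84 ± 0.13, adjusted p = 0.00200) and remained called under every alternative tried. In old GSH-low its change against young was 0.35 (95% interval 0.04 to 0.65) and missed the threshold (adjusted p = 0.0706), though it passed without young replicate 2 (0.0114) and with library size as the only scaling (0.0418). Between the old fractions Jag1 stood at 0.696 times the old GSH-high level in old GSH-low (-0.49, 95% interval -0.79 to -0.19), and this missed the threshold as well (adjusted p = 0.0761). With only the 4 old libraries it passed (0.0243), also with the replicate number as a block in them (0.00409). It passed with limma-voom on recovered reads too (0.0407). Leaving out a young library rested on the spread of those same 4 libraries, so it was no separate test. It did not pass without the filter (0.0755), with 0.1 added in place of 1 (0.0887) or with either other scaling (0.0815 and 0.0802). With the block and all 6 libraries it missed the threshold too (0.127). Without 1 old library the change ranged from -0.61 to -0.38.

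HES and HEY proteins bind class C and E boxes, written here as CACGNG and searched on both strands, so the upstream sequences of the ligand genes, whose changes against young in old GSH-high were the firmest among the members beside Hey1, are shown with their matches in capitals. Promoter windows of 250 bases came from RefSeq (GRCm38.p6), where 6 of the 9 members matched; Hes1, Hey1 and Heyl did not. Dll1 is on the minus strand at chr17:15376933-15377182, and the part of the Jag1 window outside annotated exons is on the minus strand at chr2:137116645-137116770.
Dll1: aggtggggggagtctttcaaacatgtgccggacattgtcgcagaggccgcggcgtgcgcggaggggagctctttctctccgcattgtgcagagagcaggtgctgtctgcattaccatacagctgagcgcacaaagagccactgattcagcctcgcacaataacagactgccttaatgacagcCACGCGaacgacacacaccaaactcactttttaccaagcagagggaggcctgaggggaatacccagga
Jag1: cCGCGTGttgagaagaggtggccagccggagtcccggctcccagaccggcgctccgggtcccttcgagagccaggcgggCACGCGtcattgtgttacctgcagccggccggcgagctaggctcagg
The stretch of Jag1 holds 2 matches and that of Dll1 holds 1. Of the 32851 promoter windows in the table, 23.5% hold at least 1 such match. Notch2 and Notch3 have a match too, and these 2 receptors were not called in any comparison.

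Jag1 and the endothelial ligand Dll4 were measured in libraries that differed in endothelial marker transcripts, although the sort removed cells with CD31 (the product of Pecam1). The summed level of 18 endothelial markers was 33.8 to 41.5 RPKM in old GSH-low, 117.1 to 118.9 RPKM in old GSH-high and 51.4 to 63.6 RPKM in young libraries. Of these 18 markers, 16 fell and none rose in old GSH-low against old GSH-high (88.9% called, beside 5.38% of all genes). In old GSH-high against young 17 rose (94.4%, beside 28.8%). Those with a mean under 1 RPKM numbered 11 of 18 in old GSH-low, 0 in old GSH-high and 7 in young. Pecam1 averaged 1.15 ± 0.379 RPKM in old GSH-low, 6.76 ± 0.134 in old GSH-high and 2.41 ± 0.855 in young cells (SD, n = 2 each). In old GSH-low against young libraries Jag1 lay higher and this sum lay lower. The summed level of 5 arterial endothelial markers, Dll4 among them, was 20.9 to 21.5 RPKM in old GSH-low, 17.1 to 17.9 RPKM in old GSH-high and 8.97 to 11.4 RPKM in young libraries. Like Jag1, this sum lay higher in both old fractions than in young libraries, but unlike Jag1 it was highest in old GSH-low. Its genes did not share that order. Of 4 tested between the old fractions, 1 was higher in old GSH-low and 1, Dll4, was lower (50% called, beside 5.38%). Those with a mean under 1 RPKM numbered 2 of 5 in old GSH-low, 0 in old GSH-high and 2 in young. The part of endothelial RNA in the level of Jag1 was not tested.

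Dll4, the Delta ligand of arterial and sprouting endothelium, had 0.58 and 0.31 RPKM in old GSH-low, 1.61 and 1.20 RPKM in old GSH-high and 0.69 and 0.49 RPKM in young libraries. Old GSH-low had less of it than old GSH-high (-0.73 ± 0.14, adjusted p = 0.0155), and old GSH-high had more of it than young (0.59 ± 0.14, adjusted p = 0.0125). The first call ended without old GSH-high replicate 1 or old GSH-low replicate 2, and the other without old GSH-high replicate 1 or young replicate 2 (adjusted p up to 0.113 and 0.0951). Egfl7, a secreted endothelial protein that binds Notch receptors, had 0.60 and 0.48 RPKM in old GSH-low, 1.55 and 1.54 RPKM in old GSH-high and 0.71 and 0.55 RPKM in young libraries. It was called in the same comparisons (-0.72 and 0.65), also without any 1 library. Near 1 RPKM the added 1 shrinks a change, and fits that add less gave up to -1.69 and 1.26 for Dll4 and up to -1.51 and 1.31 for Egfl7.

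**Figure D2:**
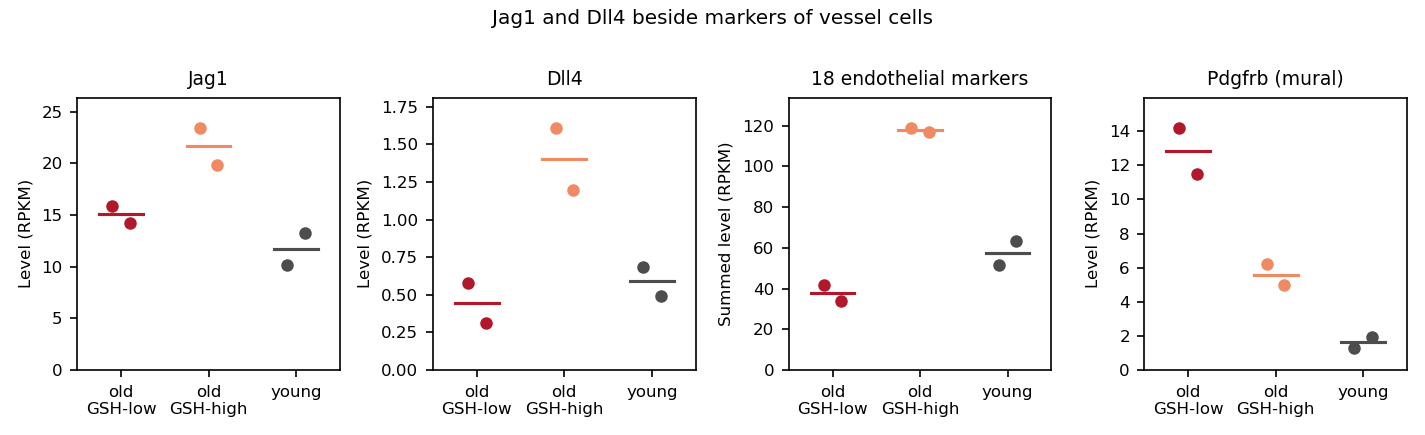
Levels (RPKM, linear axes from 0) of Jag1 and Dll4, the summed level of 18 endothelial markers, and the mural cell gene Pdgfrb in each library; points are libraries and lines are group means. Dll4 and the endothelial sum are highest in old GSH-high. The endothelial sum is lowest in old GSH-low, while for Dll4 old GSH-low overlaps young. Jag1 is highest in old GSH-high and lowest in young, and Pdgfrb is highest in old GSH-low. Pdgfrb does not stand for all mural markers. Of 10 tested, 5 rose and 3 fell in old GSH-low against young (80% called, beside 36.8% of all genes).

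Markers of mural cells, in which Notch3 and Heyl are known to be abundant, did not share one direction. Of 10 tested in the list, which includes Notch3, between the old fractions 5 were called (50%, beside 5.38% of all genes). Each of these was higher in old GSH-low. Against young, 6 rose and 3 fell in old GSH-high (90%, beside 28.8%), and 5 rose and 3 fell in old GSH-low (80%, beside 36.8%). The summed level of 11 mural markers other than Notch3 was 595.6 to 627.6 RPKM in old GSH-low, 635.9 to 653.9 RPKM in old GSH-high and 890.1 to 924.5 RPKM in young libraries. This sum follows its most abundant genes and includes Des, which is also among the satellite cell markers. Acta2, of smooth muscle, averaged 63.7 RPKM in old GSH-low, 67.2 in old GSH-high and 133.1 in young cells. Rgs5, of pericytes, ran the other way, with means of 14.7, 8.16 and 3.83 RPKM. Pdgfrb, the platelet-derived growth factor receptor of pericytes, had 14.2 and 11.5 RPKM in old GSH-low, 6.21 and 4.98 RPKM in old GSH-high and 1.31 and 1.95 RPKM in young libraries. Tnmd, a membrane protein of tendon cells, had 136.0 and 123.9 RPKM in old GSH-low, 29.6 and 27.2 RPKM in old GSH-high and 2.47 and 3.57 RPKM in young libraries. The groups did not overlap for either gene, and old GSH-low was the highest for both. Whether mural or tendon cells were present, and their part in the members' levels, was not tested.

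Rbpj (chromosome 5, 53466152 to 53657362), the DNA-binding partner of the cleaved receptors and a repressor in their absence, had 11.6 and 9.70 RPKM in old GSH-low, 9.28 and 9.60 RPKM in old GSH-high and 7.65 and 8.30 RPKM in young libraries. All 4 old libraries lay above both young libraries, and both old GSH-low libraries above both of old GSH-high. In old GSH-low it rose 1.34-fold against young (0.37 ± 0.10, adjusted p = 0.0208). The call was lost (adjusted p = 0.173 and 0.0694) when either old GSH-low replicate 1 or young replicate 1 was left out. Neither old GSH-high against young (0.22, 95% interval -0.01 to 0.45) nor old GSH-low against old GSH-high (0.15, -0.08 to 0.39) passed. Of the members with a promoter window, Rbpj alone held TGGGAA, the core of the sequence that its own protein binds, on either strand. In the window with its start site at 53590346, inside the gene, matches lay at -149 on the plus strand and at -65 on the minus strand. Another Rbpj window, with its start site at 53590486, held a match at -205 on the minus strand. The part of the window at 53590346 outside annotated exons, at chr5:53590096-53590213 on the plus strand, is shown with the match at -149 in capitals.
Rbpj: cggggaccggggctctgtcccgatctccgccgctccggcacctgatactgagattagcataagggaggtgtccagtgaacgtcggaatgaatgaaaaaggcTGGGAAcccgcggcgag
Among all 32851 windows, 21.6% hold this core.

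The effectors Hes1, Hey1 and Heyl, which encode repressors that Notch signalling induces, each followed a pattern of its own. Hey1 (chromosome 3, 8663359 to 8667256) had 15.7 and 16.5 RPKM in old GSH-low, 15.8 and 16.7 RPKM in old GSH-high and 25.6 and 24.9 RPKM in young libraries. The old fractions overlapped and both young libraries lay above them. Hey1 fell to 0.644 times the young level in old GSH-high (-0.61 ± 0.08, adjusted p = 0.000837) and to 0.636 times in old GSH-low (-0.62 ± 0.08, adjusted p = 0.000553). Both remained called under every alternative tried. Between the old fractions the change was -0.02 with a 95% interval of -0.20 to 0.17.

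Heyl (chromosome 4, 123233556 to 123249875), the HEY factor that acts together with Hey1 in satellite cells, had 41.3 and 38.2 RPKM in old GSH-low, 33.1 and 30.7 RPKM in old GSH-high and 30.2 and 31.7 RPKM in young libraries. Old GSH-low stood above the other groups, which overlapped. It rose 1.28-fold in old GSH-low against young (0.35 ± 0.09, adjusted p = 0.0127), and the call ended without old GSH-low replicate 1 (0.112). Against old GSH-high the change was 0.31 (95% interval 0.11 to 0.50) and missed the threshold (adjusted p = 0.0848). It passed with only the 4 old libraries (0.0480), also with the replicate number as a block in them (0.0232). It did not pass without the filter (0.0798), with limma-voom on recovered reads (0.0634) or with 0.1 added in place of 1 (0.0910). Nor did it pass with either other scaling (0.0713 and 0.0802) or with the block over all 6 libraries (0.164). In old GSH-high against young the change was 0.04 (-0.15 to 0.24).

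Hes1 (chromosome 16, 30064384 to 30067796), a repressor of differentiation genes whose level is also set by other signals, had 16.4 and 17.6 RPKM in old GSH-low, 12.4 and 11.4 RPKM in old GSH-high and 16.3 and 13.4 RPKM in young libraries. The old fractions did not overlap, and the young libraries lay between them. Hes1 was 1.43-fold higher in old GSH-low when set against old GSH-high (0.48 ± 0.11, adjusted p = 0.0351). The call ended without any 1 of the 4 old libraries (adjusted p of 0.118 to 0.256). Against young the change was -0.29 in old GSH-high (95% interval -0.53 to -0.05, adjusted p = 0.0735) and 0.19 in old GSH-low (-0.05 to 0.43, adjusted p = 0.188). Without young replicate 2 the change in old GSH-high was -0.42 and called (0.0120), and without young replicate 1 that in old GSH-low was 0.33 and called (0.0336).

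Immediate early genes, which are switched on fast by many stimuli, the dissociation of a tissue included, were measured in the same libraries. Of 26, 12 rose and none fell in old GSH-low against old GSH-high (46.2% called, beside 5.38% of all genes). In old GSH-high against young 17 fell and 6 rose (88.5%, beside 28.8%). Their summed level was 7034 to 7141 RPKM in old GSH-low, 5439 to 5871 RPKM in old GSH-high and 8283 to 8880 RPKM in young libraries. Fos, which encodes a partner in AP-1 dimers, had 890.8 and 889.5 RPKM in old GSH-low, 420.6 and 402.3 RPKM in old GSH-high and 1005 and 897.2 RPKM in young libraries. In old GSH-low against young, 8 of the 26 rose and 7 fell (57.7%, beside 36.8%). Old GSH-high was the lowest group for Hes1, for Fos and for the sum, while the highest was old GSH-low for Hes1 and young for the sum and, by its mean, for Fos. The part of this response in the level of Hes1 was not tested.

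**Figure D3:**
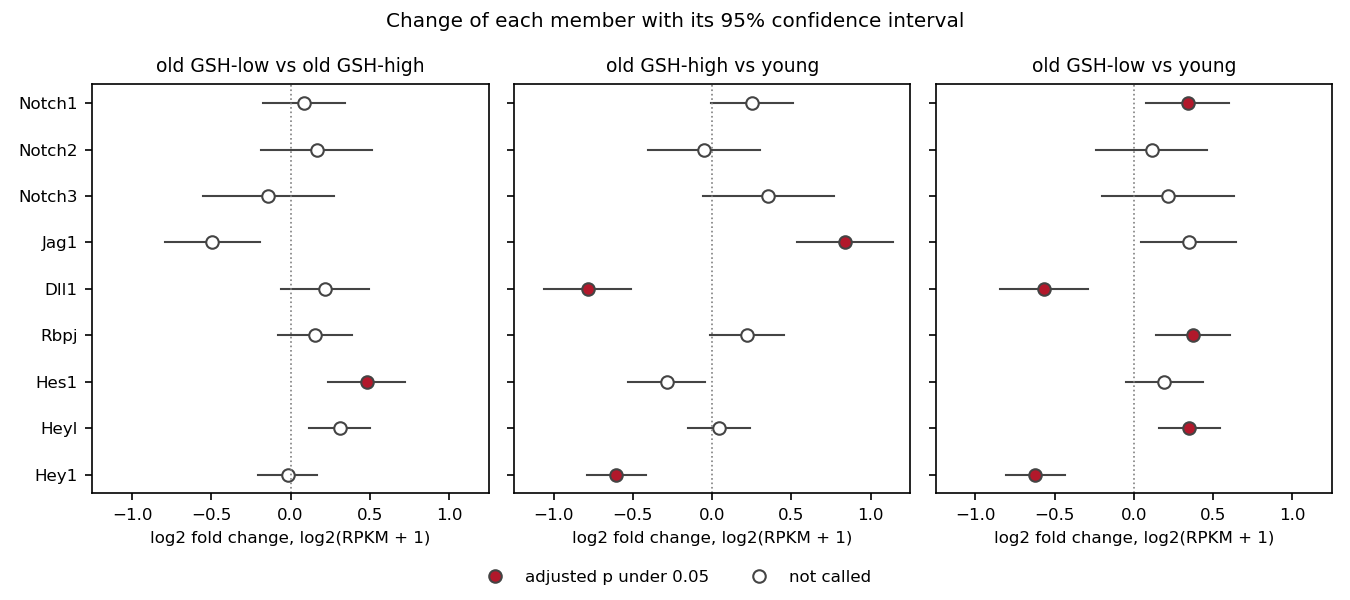
Log2 fold change of each member, on the log2(RPKM + 1) scale, with its 95% confidence interval (lines) in the 3 comparisons; filled points passed an adjusted p of 0.05. Dll1 and Hey1 lie below 0 in both comparisons with young, at -0.79 and -0.61 in old GSH-high and -0.57 and -0.62 in old GSH-low, while Jag1 reaches 0.84 in old GSH-high.

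The other genes of the pathway were read from lists grouped by role. Among receptor processing genes every call was a decrease. Of 12 tested, 5 fell and none rose in old GSH-low against young (41.7% called, beside 36.8% of all genes). The median log2 fold change there was -0.22 (-0.02 over all genes tested). In old GSH-high against young 2 fell and none rose (16.7%, beside 28.8%), with a median of -0.12. Between the old fractions none passed (beside 5.38% of all genes), with a median of -0.05. Ncstn, which encodes the nicastrin subunit of gamma-secretase, had 26.5 and 27.6 RPKM in old GSH-low, 29.7 and 30.4 RPKM in old GSH-high and 38.5 and 39.7 RPKM in young libraries. All old libraries lay under the young ones, and Ncstn fell by 0.52 in old GSH-low (adjusted p = 0.00125) and by 0.37 in old GSH-high (adjusted p = 0.00853) on the log2 scale. Psen2, a catalytic subunit of gamma-secretase, averaged 2.70 ± 0.369 RPKM in old GSH-low, 2.56 ± 0.309 in old GSH-high and 4.43 ± 0.695 in young cells (SD, n = 2 each) and fell in both. In old GSH-high, the Ncstn call ended without either old GSH-high library (adjusted p up to 0.0867) and the Psen2 call without replicate 2 (0.0573). In old GSH-low, the calls of Psen2, Adam17 and Poglut1 each ended when 1 library was left out (adjusted p up to 0.0787, 0.129 and 0.0753). Adam10, the protease of ligand-induced cleavage, had 11.9 and 11.6 RPKM in old GSH-low, 14.3 and 14.2 RPKM in old GSH-high and 12.0 and 15.7 RPKM in young libraries, and no comparison passed. Lfng, a glycosyltransferase that tunes which ligands a receptor responds to, stayed under 1 RPKM in every library and was not tested.

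Among nuclear partners, 2 of the 3 Mastermind-like coactivators, which bind RBPJ and the cleaved receptor, were higher in both old fractions. Maml2 had 4.30 and 4.21 RPKM in old GSH-low, 4.32 and 4.37 RPKM in old GSH-high and 2.16 and 2.07 RPKM in young libraries. It rose 2.01-fold in old GSH-low and 2.06-fold in old GSH-high against young (adjusted p = 0.000271 and 0.000313). Maml3 averaged 2.18 ± 0.141 RPKM in old GSH-low, 1.93 ± 0.210 in old GSH-high and 0.661 ± 0.309 in young cells (SD, n = 2 each), and rose in both (0.95 ± 0.14 and 0.83 ± 0.14, adjusted p = 0.000919 and 0.00250). These calls held under every alternative tried, and fits that add less to low values gave Maml3 up to 1.81 and 1.63. Maml1 averaged 7.04 ± 0.0679 RPKM in old GSH-low, 6.93 ± 0.186 in old GSH-high and 6.56 ± 0.535 in young cells (SD, n = 2 each), and no comparison passed. Of the 24 coactivators and corepressors tested, 4 rose and 2 fell in old GSH-low against young (25% called, beside 36.8% of all genes), 2 rose and 2 fell in old GSH-high against young (16.7%, beside 28.8%), and 1 rose between the old fractions (4.17%, beside 5.38%). That gene, Kat2b (an acetyltransferase), lost its call without any 1 of the 4 old libraries (adjusted p up to 0.293).

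Genes of trafficking and turnover were mixed. Of 16 tested, 5 rose and 2 fell in old GSH-low against young (43.8% called, beside 36.8% of all genes). In old GSH-high against young 3 rose and 2 fell (31.2%, beside 28.8%), and 1 fell between the old fractions (6.25%, beside 5.38%). These shares lay near those of all genes. Numbl, an endocytic adaptor related to the Notch antagonist Numb, fell in old GSH-low to 0.711 times and in old GSH-high to 0.670 times the young level (adjusted p = 0.00651 and 0.00396), the first call ending without old GSH-low replicate 1 (0.0687). Numb averaged 16.9 ± 1.58 RPKM in old GSH-low, 16.1 ± 0.687 in old GSH-high and 13.8 ± 0.288 in young cells (SD, n = 2 each). Its call in old GSH-low against young (0.27 ± 0.09, adjusted p = 0.0472) ended without any 1 of the 6 libraries (0.0512 to 0.307).

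The list of other receptors and ligands held 6 genes with values, all of them ligands or proteins that bind ligands or receptors, and Dll4 and Egfl7 were described above. Of 6 tested, 5 rose and 1 fell in old GSH-high against young (100% called, beside 28.8% of all genes). In old GSH-low against young 2 rose and 1 fell (50%, beside 36.8%). Between the old fractions 1 rose and 2 fell (50%, beside 5.38%). Dlk1, a Delta-like protein without the receptor-activating domain, had 0.83 and 0.98 RPKM in old GSH-low, 0.72 and 0.61 RPKM in old GSH-high and 2.91 and 2.59 RPKM in young libraries. It was the gene of this list that fell in both old fractions, to 0.329 times the young level in old GSH-low and 0.241 times in old GSH-high (adjusted p = 0.000164 and 8.62e-05). On the log2 scale its change was -0.98 and -1.17, and down to -1.61 and -2.05 in fits that add less to low values. Mfap2, a microfibril protein of connective tissue that can bind Jagged ligands, had 12.6 and 11.6 RPKM in old GSH-low, 4.86 and 4.74 RPKM in old GSH-high and 3.23 and 2.78 RPKM in young libraries. It rose in all 3 comparisons (1.18, 0.53 and 1.71 in the order old GSH-low against old GSH-high, old GSH-high against young and old GSH-low against young), and its groups stood in the same order as those of the tendon gene Tnmd.

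**Figure D4:**
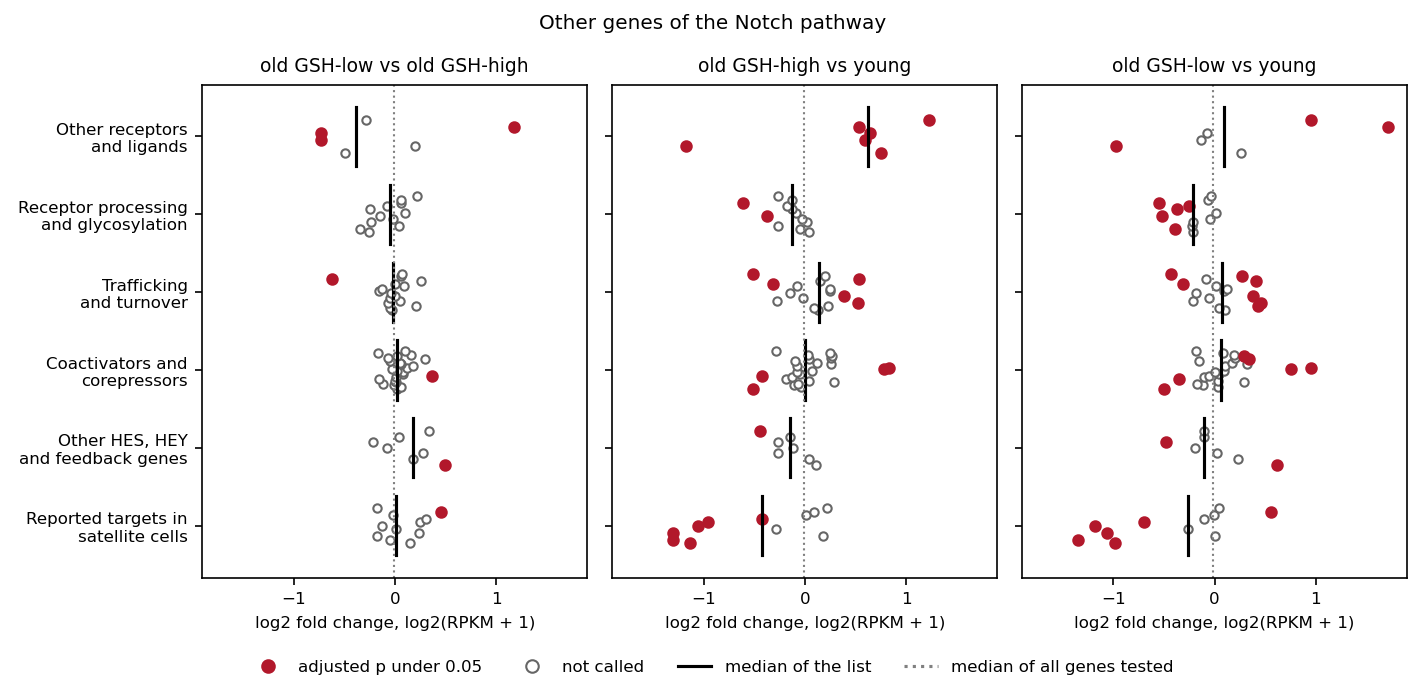
Log2 fold change, on the log2(RPKM + 1) scale, of the genes tested in 6 lists of the Notch pathway; filled points passed an adjusted p of 0.05, solid bars are list medians and the dotted line is the median of all genes tested. Reported targets in satellite cells extend below -1 in both comparisons with young, and receptor processing genes lie mostly below 0 in old GSH-low against young.

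Among the other HES-related and feedback genes, 1 of 7 rose between the old fractions (14.3% called, beside 5.38% of all genes). In old GSH-high against young 1 fell (14.3%, beside 28.8%). In old GSH-low against young 1 rose and 1 fell (28.6%, beside 36.8%). Bhlhe40, a repressor related to the HES factors, had 70.0 and 62.4 RPKM in old GSH-low, 47.8 and 45.1 RPKM in old GSH-high and 42.3 and 43.3 RPKM in young libraries. It rose in old GSH-low against old GSH-high (0.50 ± 0.09, adjusted p = 0.0112) and against young (0.61 ± 0.09, adjusted p = 0.000885). The first call ended without old GSH-low replicate 1 or either old GSH-high library (adjusted p up to 0.143). Hes6, which opposes Hes1, had 3.95 and 6.05 RPKM in old GSH-low, 3.81 and 3.92 RPKM in old GSH-high and 5.09 and 4.59 RPKM in young libraries, and no comparison passed.

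Among genes reported as Notch targets in mouse satellite cells, all but 1 of the calls against young were decreases. This list shares Calcr, Pax7 and other genes with the satellite cell markers, so these lists are not separate readings. Of 11 tested, 6 fell and none rose in old GSH-high against young (54.5% called, beside 28.8% of all genes). The median there was -0.42 (0.00 over all genes tested). In old GSH-low against young 5 fell and 1 rose (54.5%, beside 36.8%), with a median of -0.27 (-0.02 over all genes). Between the old fractions 1 rose and none fell (9.09%, beside 5.38%), with a median of 0.01. Calcr, the calcitonin receptor that keeps satellite cells quiescent, had 22.9 and 19.8 RPKM in old GSH-low, 18.1 and 20.3 RPKM in old GSH-high and 40.2 and 46.6 RPKM in young libraries. The young libraries stood above all old ones, and the old fractions overlapped. Calcr fell to 0.492 times the young level in old GSH-low (-0.99 ± 0.11, adjusted p = 0.000217) and to 0.443 times in old GSH-high (-1.13 ± 0.11, adjusted p = 0.000145).

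Col5a1, Col5a3 and Col6a1, collagen genes of that list, fell in the same comparisons as Calcr. Collagen V is a ligand of the calcitonin receptor in the satellite cell niche. Col5a1 had 31.9 and 36.6 RPKM in old GSH-low, 27.8 and 29.9 RPKM in old GSH-high and 74.3 and 70.7 RPKM in young libraries. Col5a3 had 29.8 and 33.5 RPKM in old GSH-low, 36.1 and 33.1 RPKM in old GSH-high and 60.5 and 87.9 RPKM in young libraries. Every young library lay above every old one for both. Col5a1 fell by 1.06 in old GSH-low and by 1.30 in old GSH-high on the log2 scale, Col5a3 fell by 1.18 and by 1.06, and Col6a1 fell by 0.70 and by 0.95, each against young. Col6a2 fell by 0.42 in old GSH-high (adjusted p = 0.0188), a call lost without either old GSH-high library (adjusted p up to 0.114), and in old GSH-low its change was -0.11. Ccnd1, the gene of cyclin D1, which drives entry into the cell cycle, fell by 1.35 and by 1.30. The calls of Calcr, Col5a1, Col5a3, Col6a1 and Ccnd1 held in both comparisons under every alternative tried. Of 11 fibro-adipogenic progenitor markers, many of them matrix genes, 7 rose and 2 fell in old GSH-low against young (81.8% called, beside 36.8% of all genes). In old GSH-high against young 8 rose and 1 fell (81.8%, beside 28.8%). The part of fibro-adipogenic progenitors in the collagen levels was not tested.

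Pax7, the transcription factor that defines satellite cells, was the gene of the target list that rose. It had 11.2 and 12.6 RPKM in old GSH-low, 8.09 and 8.65 RPKM in old GSH-high and 7.93 and 7.64 RPKM in young libraries. Old GSH-low stood above the other groups, as it did for Heyl. Pax7 rose in old GSH-low against young (0.55 ± 0.09, adjusted p = 0.00206) and against old GSH-high (0.46 ± 0.09, adjusted p = 0.0225), the second call ending without any 1 of the 4 old libraries (adjusted p up to 0.202).

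**Figure D5:**
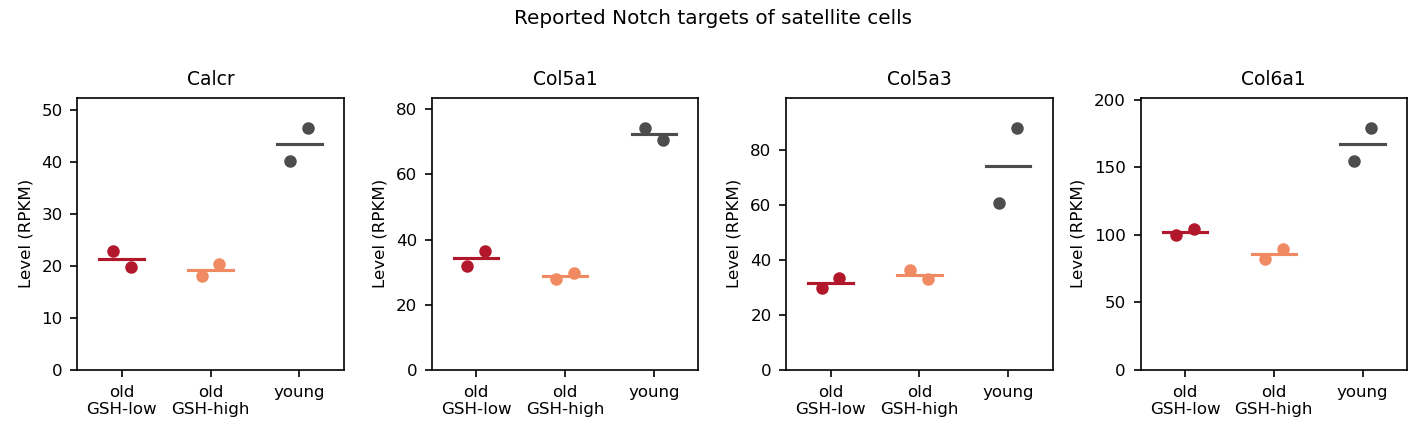
Levels (RPKM, linear axes from 0) of the reported Notch targets Calcr, Col5a1, Col5a3 and Col6a1 in each library; points are libraries and lines are group means. Both young libraries lie above all 4 old libraries for each gene, for Calcr at 40.2 and 46.6 RPKM.

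The genes with the most similar pattern were taken by Pearson's r of log2(RPKM + 1) over the 6 libraries, as a description, since the points share groups and libraries. For Hey1 they were Hspa5, Sox11 and Edn3 (r of 1.00 for the first), and 568 genes had an r above 0.95. For Dll1 they were Trib1, Hdgfl2 and Xlr3b (0.996 for the first), for Jag1 Rnf217, Tbc1d1 and Gnl3l (0.994), and for Hes1 Syt11, Ing2 and Tm2d2 (0.996). Heyl had Epb41l4b, Spen and Il2rb (0.995 for the first). Notch1 had Il1rap, Tgfbr3 and Phc1 (0.999), Notch3 had Tjp1, Pkd2l2 and Zfp445 (0.992), and Rbpj had Zbtb48, Cipc and Enpp1 (0.987). Notch2 had Zfp512, Abcc5 and Zfp598 (0.975), and 6 genes passed 0.95 for it. Among the members themselves, Notch1 and Rbpj were the closest pair with an r of 0.901, and Dll1 and Hey1 had 0.875. The nearest member to Hes1 was Heyl with 0.604.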

How the data were processed

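Polyadenylated RNA of 6 libraries was sequenced from one end. Per the submitters' processing notes, Trim Galore, STAR, featureCounts (Subread) and edgeR were used with mm10 (GRCm38); versions and strandedness are not given in the sources used here. The authors deposited 1 table of RPKM for 12067 genes. Its values came out as whole reads over a constant per library and gene length for 12067 genes (tolerance 0.02 reads plus 3e-07 relative), and the length was the union exon length of GENCODE M21 for 98.5% of the 11988 symbols found there. In all, 229 values were read as replaced zeros.

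Genes with RPKM of at least 1 in 2 libraries were kept (10609, with 1458 removed). Values were log2(RPKM + 1), which understates changes of low genes, fitted with limma-trend (limma 3.58.1, R 4.3.3; two-sided, Benjamini-Hochberg over all genes, 3 residual degrees of freedom) as a means model of the 3 groups. The fit was also run on simulated data. Those data gave all genes the same spread beyond counting and held no pools of animals, so they do not check the member calls. Python 3.11.15 was used for reads and figures. Young libraries are 1 animal each and old libraries pools of 2; p-values measure the spread between these 6 libraries, and with 2 per group the exact test of a single gene cannot reach the threshold.

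Members and lists were chosen with earlier results of these data known, so no list was tested as a set. Named were all members, some of the pathway genes past the test in at least 1 comparison, a few fixed pathway genes, and the 3 most similar genes per member. Other pathway genes that passed are only counted in their lists. Marker genes are named as background values. The counting error given covers sampling of reads only. Alternatives were a pseudocount of 0.1, no filter, 2 other scalings, a fit of the 4 libraries of a comparison, limma-voom on recovered reads, the replicate number as a block, and leaving out each library. Notch4, Jag2, Dll3, Hey2, Nrarp, Mfng and Hes5 are not analysed here, and 1 gene of the receptor processing list is not reported here by name.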

Additional observations from a re-analysis of the deposited data

How the results depend on the processing

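Of 360 changes of the members under alternatives, 318 kept their direction and their side of the threshold, 16 moved past it, 16 lost it and 10 turned. Between the old fractions the 571 calls became 864 with only those 4 libraries, 1067 with the replicate block in old samples only, and 312 to 863 without 1 library. Of the members, 1 was called, against 2 with limma-voom, 3 with the 4 libraries, 0 with the replicate block, 3 with the block in old samples only, and 0 to 3 without 1 library. In old GSH-high against young the 3051 calls ranged from 1493 to 3802 without 1 library and the members called from 3 to 6. In old GSH-low against young the 3901 calls ranged from 2068 to 4295 and the members called from 2 to 7. The lowest counts came without old GSH-high replicate 1 (1493; 1816 without replicate 2) and without old GSH-low replicate 1 (2068).

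None of the changes that turned had passed the test with all libraries. Without 1 library, Notch2 ranged from -0.0046 to 0.33 between the old fractions, from -0.23 to 0.13 in old GSH-high against young (0.0048 with library size as the only scaling) and from -0.066 to 0.29 in old GSH-low against young. Notch3 ranged from -0.12 to 0.55 in old GSH-low against young, Hey1 from -0.057 to 0.023 between the old fractions, and Heyl from -0.0099 to 0.094 in old GSH-high against young. The cause was not tested.

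Deviations of replicates from their group means had an r of -0.26 between old GSH-low and young and -0.14 between old GSH-high and young. Between the old fractions it was 0.07. With 2 libraries per group, this r cannot settle whether libraries of the same replicate number shared animals. With the replicate block over all 6 libraries, 479, 2559 and 3350 genes were called (old GSH-low against old GSH-high, old GSH-high against young, old GSH-low against young). The calls of Hes1 between the old fractions (adjusted p = 0.0590) and of Notch1 in old GSH-low against young (0.0762) ended, and no other member's call did. With the block in old samples only, the Hes1 call was kept (0.00873). Counting error was at most 4.1% per member and library, and each group had 2 libraries.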

Other observations

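Ratios within a library do not depend on how libraries were scaled, and 4 were taken after the values were seen, as a description with no test. Jag1 over Dll1, on RPKM, was 4.56 and 4.84 for old GSH-low, 7.85 and 8.71 for old GSH-high and 2.04 and 2.41 for young libraries, so that the balance of the ligand transcripts stood apart in all 3 groups. Hes1 over Hey1 was 1.05 and 1.07 for old GSH-low, 0.784 and 0.684 for old GSH-high and 0.635 and 0.537 for young libraries. Heyl over Hey1 was 2.64 and 2.32 for old GSH-low, 2.10 and 1.84 for old GSH-high and 1.18 and 1.27 for young libraries. In these last ratios, both over Hey1, old GSH-low was the highest group and young the lowest, with no overlap. Hes1 over Heyl ran otherwise, with 0.397 and 0.460 for old GSH-low, 0.374 and 0.372 for old GSH-high and 0.538 and 0.422 for young libraries, so that young had the highest mean and overlapped old GSH-low.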
